A study of Homo sapiens with 6 samples.

Results

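The 10 genes examined here encode enzymes that add acetyl groups to lysines or remove them. The rule took them by gene name and used no peak value, although earlier results of these data were known when it was written: the acetyltransferase genes EP300, CREBBP, KAT2A, KAT2B, KAT5 and KAT8 and the deacetylase genes HDAC1, HDAC2, HDAC3 and SIRT1. All 10 were found among 19821 protein-coding genes of the RefSeq annotation on chromosomes 1 to 22 and X. Each gene was taken with 20 kb on either side, and the chromatin immunoprecipitation (ChIP-seq) peaks of acetylated NEIL1 (AcNEIL1) were located in that window.

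NEIL1 is a DNA glycosylase that starts the repair of oxidised bases, and a custom rabbit antibody to its acetylated form was used on HCT116 cells, an established line from a human colorectal adenocarcinoma. There were 3 AcNEIL1 ChIP libraries, replicates 1 to 3, from exponentially growing cells, and 3 libraries of input DNA taken before ChIP. Each ChIP peak list had been made against the input of the same number, and the inputs' own values were not analysed here. The labels name no genotype, treatment or time that sets samples apart. Peak lists hold no expression values, so the line could not be checked by marker genes. The labels do not state that the replicates were independent cultures, and differences among them could be technical. Depth after the caller's duplicate filter was 28814429 to 35222701 tags in the ChIP libraries and 32877739 to 37772127 tags in the inputs. On the chromosomes used, replicate 1 had 39789 peaks, replicate 2 had 60075 and replicate 3 had 49609. With 1 condition there was no contrast to test, so all counts are descriptions, set beside the share of all protein-coding genes.

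Lysine acetylation neutralises the charge of a side chain and creates a binding site for bromodomain proteins. p300 and CBP, the products of EP300 and CREBBP, are closely related coactivators, and p300 is known to acetylate NEIL1. GCN5 and PCAF, from KAT2A and KAT2B, are the interchangeable catalytic subunits of the SAGA and ATAC complexes, TIP60 from KAT5 works in the NuA4 complex, and MOF from KAT8 acetylates histone tails in the MSL and NSL complexes. HDAC1 and HDAC2 are paired in repressor complexes, HDAC3 works with the NCoR and SMRT corepressors, and SIRT1 is a NAD-dependent deacetylase. The peaks described below show where AcNEIL1 was recovered near the genes of these enzymes, not where the enzymes themselves bind.

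RefSeq promoter sequences (GRCh38.p14, 250 bases before to 50 after the start) were available for 9 of the 10 genes, with 2 starts for CREBBP. None of these 10 promoters overlapped a peak in any replicate. The following 4 are shown because they frame that result: KAT2A and HDAC1 had many peaks nearby, CREBBP had the peak closest to a member's start, and EP300 had no peak in its window. The ZNF385C promoter, in the downstream flank of KAT2A, is shown as a neighbour's promoter under peaks of replicates 2 and 3, and it was chosen after its values were seen. Capitals mark CpG dinucleotides (the motif CG, which reads the same on both strands).
KAT2A, chr17:42121318-42121617, minus strand: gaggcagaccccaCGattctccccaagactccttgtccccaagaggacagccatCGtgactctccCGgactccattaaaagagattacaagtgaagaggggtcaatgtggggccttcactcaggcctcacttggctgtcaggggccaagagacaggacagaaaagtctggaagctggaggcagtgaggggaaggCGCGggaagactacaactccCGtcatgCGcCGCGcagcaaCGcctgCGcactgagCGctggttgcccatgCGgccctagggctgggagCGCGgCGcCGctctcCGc
HDAC1, chr1:32291833-32292132, plus strand: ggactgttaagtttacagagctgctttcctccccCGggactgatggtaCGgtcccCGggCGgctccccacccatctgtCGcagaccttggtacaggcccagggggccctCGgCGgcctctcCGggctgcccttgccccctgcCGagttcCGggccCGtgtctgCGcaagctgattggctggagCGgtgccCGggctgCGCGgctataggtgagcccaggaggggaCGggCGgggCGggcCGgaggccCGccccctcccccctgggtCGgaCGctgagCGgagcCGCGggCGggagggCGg
CREBBP, chr16:3880664-3880963, minus strand: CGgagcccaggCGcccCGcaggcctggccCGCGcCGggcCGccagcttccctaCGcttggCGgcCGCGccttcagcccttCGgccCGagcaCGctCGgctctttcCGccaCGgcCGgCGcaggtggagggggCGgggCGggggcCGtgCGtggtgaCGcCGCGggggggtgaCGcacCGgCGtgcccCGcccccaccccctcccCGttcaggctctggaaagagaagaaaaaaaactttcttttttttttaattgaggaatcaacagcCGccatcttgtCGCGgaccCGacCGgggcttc
EP300, chr22:41092342-41092641, plus strand: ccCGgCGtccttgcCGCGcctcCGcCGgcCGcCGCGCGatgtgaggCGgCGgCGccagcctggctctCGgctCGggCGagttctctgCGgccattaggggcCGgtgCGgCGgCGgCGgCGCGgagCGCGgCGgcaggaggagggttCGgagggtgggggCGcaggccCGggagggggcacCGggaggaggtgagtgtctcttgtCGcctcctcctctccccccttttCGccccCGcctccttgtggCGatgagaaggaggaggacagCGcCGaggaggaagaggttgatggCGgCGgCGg
ZNF385C, chr17:42098424-42098723, minus strand: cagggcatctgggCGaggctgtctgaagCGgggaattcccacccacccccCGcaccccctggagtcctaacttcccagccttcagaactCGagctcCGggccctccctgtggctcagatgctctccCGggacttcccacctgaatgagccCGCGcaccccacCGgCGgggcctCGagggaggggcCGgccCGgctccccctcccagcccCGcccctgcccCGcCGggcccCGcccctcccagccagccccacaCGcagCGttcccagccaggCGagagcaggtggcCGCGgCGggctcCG

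Most promoters of these genes were rich in CpG. They held 18 to 50 CpG, with a median of 33.5, against a median of 21 over 22132 protein-coding promoters, of which 98.1% held at least 1. KAT2A had 18 CpG, HDAC1 28, EP300 40 and the 2 CREBBP starts 36 and 50. The ZNF385C promoter that lay under peaks held 24. Peaks were uncommon at promoters in general: 3.96% of all promoters had one in at least 2 replicates. When promoters were divided by CpG count into 3 classes of similar size, the share was 6.14% with 0 to 12 CpG, 3.32% with 13 to 28 and 2.24% with 29 to 69. No promoter of the 10 genes fell in the lowest class, 4 fell in the middle and 6 in the highest. At such shares a count of 0 among 10 promoters, taken like the shares in at least 2 replicates, is near the background.

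Peaks were concentrated at a few of the 10 genes. Replicate 1 had 27 peaks in the 10 windows, replicate 2 had 37 and replicate 3 had 31. The mean was 31.7 ± 5.03 (SD, n = 3), and the peaks made up 0.0679%, 0.0616% and 0.0625% of each list. HDAC1 had 14, 12 and 11 of them, KAT2A 4, 9 and 12, and KAT8 7, 10 and 7 in replicates 1, 2 and 3. CREBBP, KAT5 and HDAC3 had between 0 and 2 peaks per replicate. EP300, KAT2B, HDAC2 and SIRT1 had none in any replicate. The map of peaks along the genes shows all 95.

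**Figure D1:**
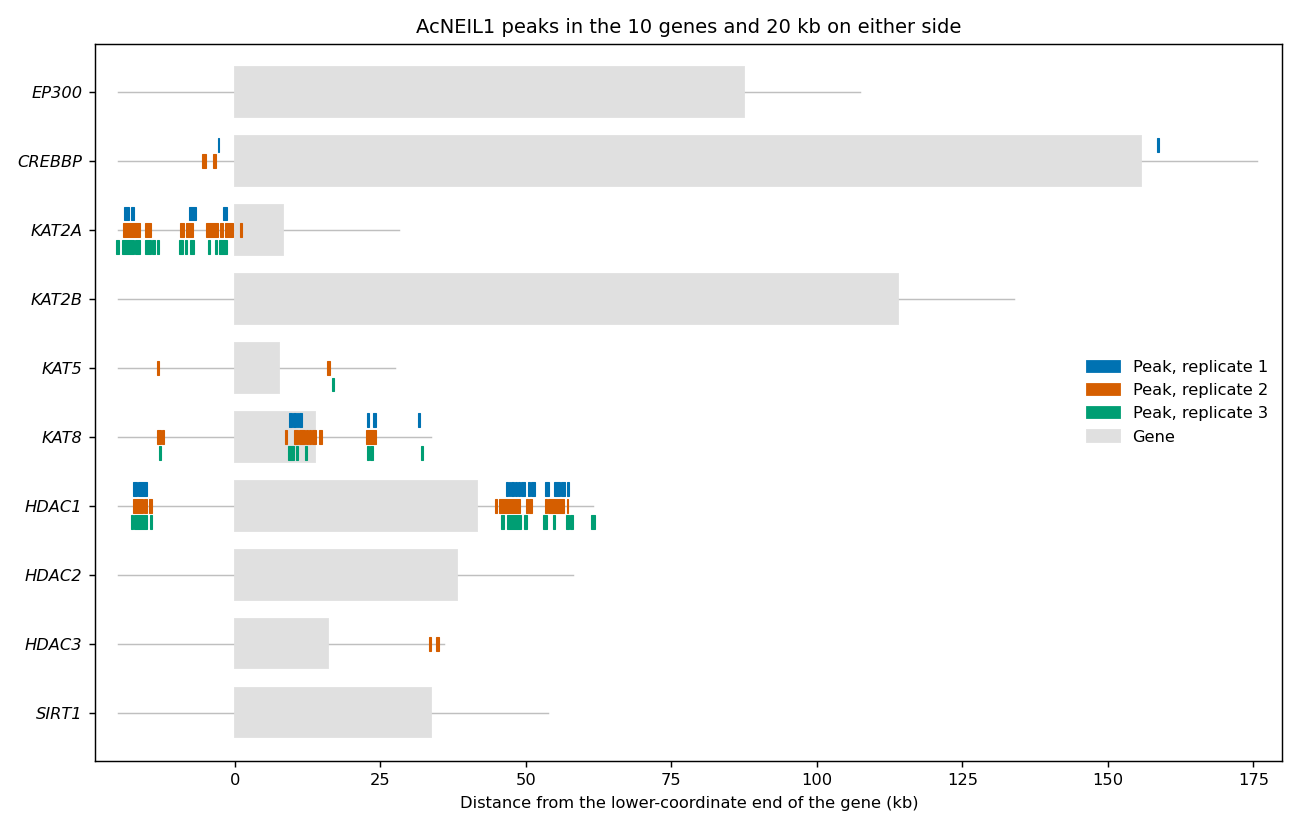
Positions of AcNEIL1 peaks along each gene and its 20 kb flanks. The horizontal axis gives the distance in kb from the lower-coordinate end of the gene, grey boxes are genes, grey lines are flanks, and coloured bars with a thin outline are peaks of replicates 1 (blue), 2 (orange) and 3 (green). Peaks lie beside HDAC1 and KAT2A and inside KAT8, while EP300, KAT2B, HDAC2 and SIRT1 are empty.

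Of the 95 peaks, 5 came within 1 kb of the start or end of a gene, 11 lay in the rest of a gene and 79 lay in the flanks. All 5 of these gene-end peaks came from replicate 2, where they belonged to KAT2A and KAT8. No gene of the 10 thus had a gene-end peak in at least 2 replicates, against 15.2% of protein-coding genes. KAT8 alone had a body peak in at least 2 replicates, 1 of 10 genes against 23.8%. In the flanks 5 of 10 genes had one in at least 2 replicates (HDAC1, KAT2A, KAT8, CREBBP and KAT5), against 42.4%. For the whole window the count was the same 5, against 51.6%. Without replicate 2 the last 2 counts were 3, since CREBBP and KAT5 then no longer had a peak in 2 lists. The shares of protein-coding genes were then lower too, 33.6% for the flanks and 43.2% for the window.

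The windows differ in length, from 47.6 kb for KAT5 to 195.7 kb for CREBBP. Among the 4 genes with windows under 60 kb, 3 had a window peak in at least 2 replicates (KAT2A, KAT5 and KAT8), against 55.9% of protein-coding genes of that class. Of the 3 with windows of 60 to 100 kb, HDAC1 did, against 51.2%, and of the 3 over 100 kb, CREBBP did, against 45.0%. The 4 genes with no peak in any replicate stand beside 36.7% of all protein-coding genes without one. That share was 41.5% for windows over 100 kb, the class of EP300 and KAT2B, and 36.5% for windows of 60 to 100 kb, the class of HDAC2 and SIRT1. The flank and window counts of the 10 genes were thus near the background, and the gene-end and body counts were below it by 1 or 2 genes. These differences were not tested.

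**Figure D2:**
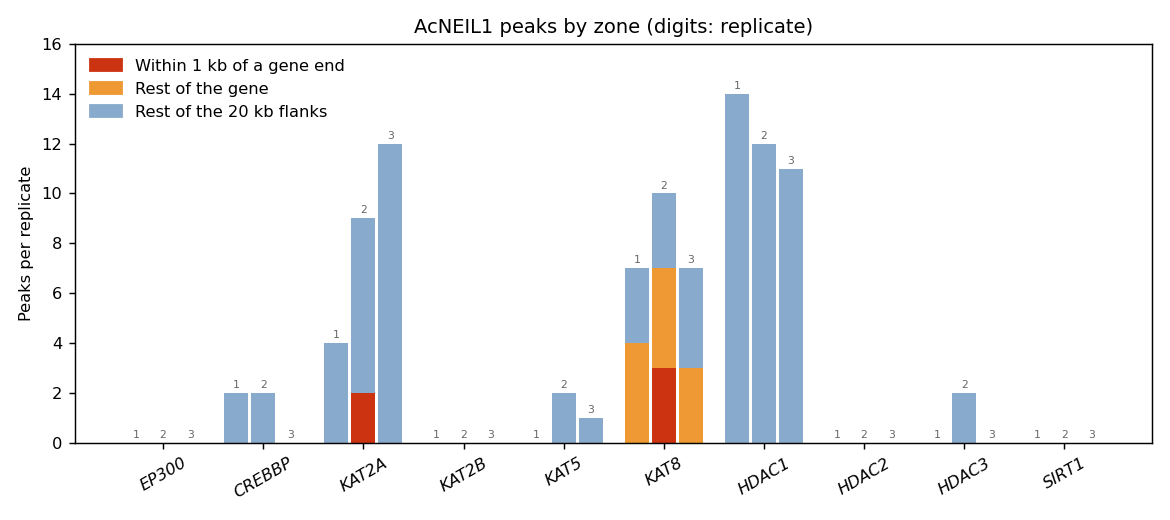
Number of AcNEIL1 peaks per gene and replicate (bars 1 to 3 of each gene), divided into gene ends (red), the rest of the gene (yellow) and the rest of the flanks (blue). Flanks hold 79 of the 95 peaks, and gene-end peaks appear only in replicate 2, at KAT2A and KAT8.

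KAT8 was the only gene of the 10 with AcNEIL1 peaks along its body in every replicate. It spans 13.7 kb on chromosome 16 (31117664 to 31131393, hg38), and its body held 4, 4 and 3 peaks in replicates 1, 2 and 3. Their summits lay between 63.3% and 91.0% of the way from the lower to the higher coordinate of the gene, so the first part of the gene by coordinate had none. Of protein-coding genes 9.74% had as many body peaks over the 3 lists together, 11 or more. This share is that of the highest of the 10 genes and was not tested.

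Most body peaks of KAT8 lay in 2 regions shared by all replicates. The region from 31126716 to 31128559 had summit pileups of 25, 19 and 22.9 tags in replicates 1, 2 and 3 and fold 4.15 ± 0.575 (SD, n = 3). The pileup is the number of extended tags stacked at the summit, and the fold is the authors' ratio of this height to the local background. For a region, each is the highest value among its peaks in a replicate, so the 2 can come from different peaks. The next region, 31128622 to 31130290, had pileups of 25, 27 and 15.3 tags and fold 3.55 ± 0.343 (SD, n = 3). Both regions were of similar height in the 3 libraries, apart from the lower replicate 3 value of the second.

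In replicate 2 the run of KAT8 peaks went on across the higher-coordinate end. There 3 further peaks came within 1 kb of the end, with pileups of 23, 17 and 18 tags and folds of 3.63, 2.93 and 2.78. The gene of the serine protease prostasin, PRSS8, lies 39 bp beyond KAT8. The peak with 17 tags spanned both genes, and that with 18 tags lay wholly inside PRSS8, 647 bp from KAT8. Replicates 1 and 3 had no peak there.

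The flanks of KAT8 held 3, 3 and 4 peaks in replicates 1, 2 and 3. A region shared by all replicates lay 8783 bp beyond the higher end, within PRSS36, another serine protease gene, with pileups of 26, 37 and 20 tags and fold 4.92 ± 1.27 (SD, n = 3). The highest pileups at any of the 10 genes came from the other flank. Over 31104317 to 31105048 they reached 72 tags in replicate 2 and 40.1 tags in replicate 3, with none in replicate 1. The folds there were 1.83 and 2.80, over a local background of 38.9 and 13.7 tags. At the peaks inside KAT8 or in PRSS36 the background lay between 3.69 and 8.74 tags. The tallest of the 95 pileups thus had the lowest fold.

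HDAC1 had the most peaks of the 10 genes, and all of them were outside the gene. It spans 41.5 kb on chromosome 1 (32292083 to 32333626), and neither its body nor its ends held a peak in any replicate. The 14, 12 and 11 flank peaks of replicates 1, 2 and 3 gave a mean of 12.3 ± 1.53 (SD, n = 3). Over the 3 lists together, 1.20% of protein-coding genes had 37 or more flank peaks, and the median gene had 1. Overlapping peaks of the 3 lists, merged into regions, numbered 9 at HDAC1, 10 at KAT2A and 11 at KAT8. HDAC1 thus led by peaks and not by regions.

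Most of the HDAC1 peaks lay downstream. There were 12, 9 and 8 in replicates 1, 2 and 3, with summits 3.22 to 20.2 kb beyond the 3′ end. Of the peaks, 11, 9 and 6 touched the long non-coding RNA gene LOC124903949 and 5, 6 and 4 its neighbour LOC105378629, which overlap in part. MARCKSL1, the protein-coding gene 212 bp beyond HDAC1, was touched by none. The widest region, 32337516 to 32343651, held 14 peaks of the 3 lists, with pileups of 26, 30 and 25.8 tags and fold 4.89 ± 0.30 (SD, n = 3). The folds were 4.75, 4.69 and 5.24 in replicates 1, 2 and 3, and the libraries lay close together.

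A further cluster followed it in the same flank. Over 32345000 to 32346693 the pileups were 20, 36 and 19.1 tags and the fold 5.12 ± 1.30 (SD, n = 3), replicate 2 standing above the others. Over 32346752 to 32348788 they were 27, 31 and 26.7 tags and the fold was 4.56 ± 0.957 (SD, n = 3). Both regions were marked in every replicate.

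Upstream of HDAC1 the peaks fell inside LCK, the gene of a T cell kinase. There were 2, 3 and 3 in replicates 1, 2 and 3, with summits 14.5 to 17.7 kb from the HDAC1 start. The region from 32274215 to 32276977 had pileups of 28, 41 and 25.8 tags and fold 3.98 ± 1.02 (SD, n = 3). Replicate 2 had the highest pileup and replicate 3 the highest fold, 5.14.

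The flank peaks of KAT2A lay on one side of the gene, unlike those of HDAC1. It spans 8.26 kb on chromosome 17 (42113111 to 42121367), and all its flank peaks, 4, 7 and 12 in replicates 1, 2 and 3, lay downstream. The upstream flank, which holds the small heat shock protein gene HSPB9 and part of RAB5C, a gene of endosome transport, held none. Of protein-coding genes 6.82% had as many flank peaks in all, 23 or more. For the lower flank totals of KAT8, CREBBP and KAT5 such shares were 21.3%, 35.4% and 39.7%. Replicates differed more here than at HDAC1, with 8.33 ± 4.04 window peaks (SD, n = 3) and replicate 1 the lowest.

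The peaks beside KAT2A fell mostly in 2 neighbouring genes. DHX58, which encodes an RNA sensor of the RIG-I family, was touched by 2, 6 and 6 peaks in replicates 1, 2 and 3, and ZNF385C, a zinc finger gene, by 2, 2 and 4. The strongest region lay in ZNF385C, at 42093692 to 42096884, with pileups of 40, 39 and 27.7 tags and fold 5.91 ± 0.918 (SD, n = 3). In replicate 1 its fold of 6.90 was the highest of all 95 peaks. Another region, in DHX58, 42104570 to 42106376, had pileups of 23, 27 and 24.8 tags and fold 4.62 ± 0.973 (SD, n = 3).

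Of the regions shared by all 3 replicates, the nearest to KAT2A, 42110442 to 42112788, ended 323 bp from the 3′ end of the gene. It lay almost wholly in DHX58. Its pileups were 24, 29 and 27.7 tags and its fold 4.31 ± 0.257 (SD, n = 3), alike in the 3 replicates. Only in replicate 2 did a peak of it come within 1 kb of the gene end. Replicate 2 also had the one peak inside KAT2A, from 42114043 to 42114376, with a pileup of 17 tags, fold 2.26 and −log10 q of 1.65, close to the caller's limit of q = 0.05.

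CREBBP and KAT5 had a few peaks that did not coincide between replicates. CREBBP spans 155.7 kb on chromosome 16 (3725054 to 3880713) and had no peak in its body. Replicate 1 had a peak downstream (pileup 16 tags, fold 3.03) and one upstream (19 tags, fold 4.06), with summits 2674 and 2956 bp from the gene. Replicate 2 had 2 peaks downstream (22 and 17 tags, folds 4.32 and 3.42), and replicate 3 had none. All 4 were separate regions of a single replicate, and none touched another gene.

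KAT5, a gene of 7.59 kb on chromosome 11 (65712018 to 65719604), had 0, 2 and 1 peaks in replicates 1, 2 and 3. Downstream, the replicate 2 peak had a pileup of 33 tags and fold 3.94, and the replicate 3 peak had 17.2 tags and fold 4.43. Their summits lay 8580 and 9279 bp beyond the gene and the peaks did not overlap; the first touched the pseudogene KRT8P26. The upstream peak of replicate 2 had 15 tags and fold 2.90. The end of KAT5 lies inside RNASEH2C, a subunit gene of ribonuclease H2, and neither gene was touched by a peak.

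HDAC3, a gene of 16.0 kb on chromosome 5 (141620881 to 141636849), had 2 peaks in replicate 2 and none in the others. Both lay in ARAP3, the gene of a GTPase-activating protein, more than 17.3 kb upstream, with pileups of 17 and 21 tags and folds of 3.39 and 3.10. HDAC3 itself and its divergent neighbour RELL2 were free of peaks.

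The 4 genes without a peak in their window differed in how far away the nearest one was. For EP300, 87.5 kb on chromosome 22 (41092592 to 41180077), the nearest peak edge was 28, 54.9 and 43.2 kb away in replicates 1, 2 and 3. These distances are near the middle of all protein-coding genes, of which 47.4%, 34.6% and 40.7% had a more distant peak. The peak-free span around EP300 was 194.0 ± 44.5 kb (SD, n = 3). CREBBP, its paralog, had a peak within 2.65 and 3.21 kb in replicates 1 and 2 and at 30.4 kb in replicate 3, nearer than EP300 in each replicate, though in replicate 3 by less than the spread of EP300.

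KAT2B, 114.0 kb on chromosome 3 (20040446 to 20154404), lay in a span of 6.74 ± 0.523 Mb without any peak (SD, n = 3). The nearest peak was 3489, 2901 and 2263 kb away in replicates 1, 2 and 3, and 2.11%, 1.88% and 3.65% of protein-coding genes had a more distant one. The span held 11, 13 and 10 other protein-coding genes. Its paralog KAT2A had a peak at 1.43, 0 and 1.43 kb, so the paralogs stood apart in every replicate.

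SIRT1, 33.7 kb on chromosome 10 (67884656 to 67918390), lay in a span of 4.87 ± 0.304 Mb without a peak (SD, n = 3), which held 11, 6 and 14 other protein-coding genes. The nearest peak was 620.1, 370.7 and 980.6 kb away, and 12.5%, 14.5% and 8.52% of protein-coding genes had a more distant one. HDAC2, 38.1 kb on chromosome 6 (113933028 to 113971148), was not alike in the 3 lists. Its nearest peak was 42.3 and 43.5 kb away in replicates 1 and 2, with pileups of 13 and 16 tags, and 2288 kb away in replicate 3. These low peaks bounded the peak-free span on its higher-coordinate side in replicates 1 and 2, where it was 2.03 and 2.39 Mb. In replicate 3, without a peak at that site, the span was 7.80 Mb. HDAC1, the paralog of HDAC2, had a peak at 5.01, 3.14 and 4.25 kb, nearer than HDAC2 in every replicate.

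**Figure D3:**
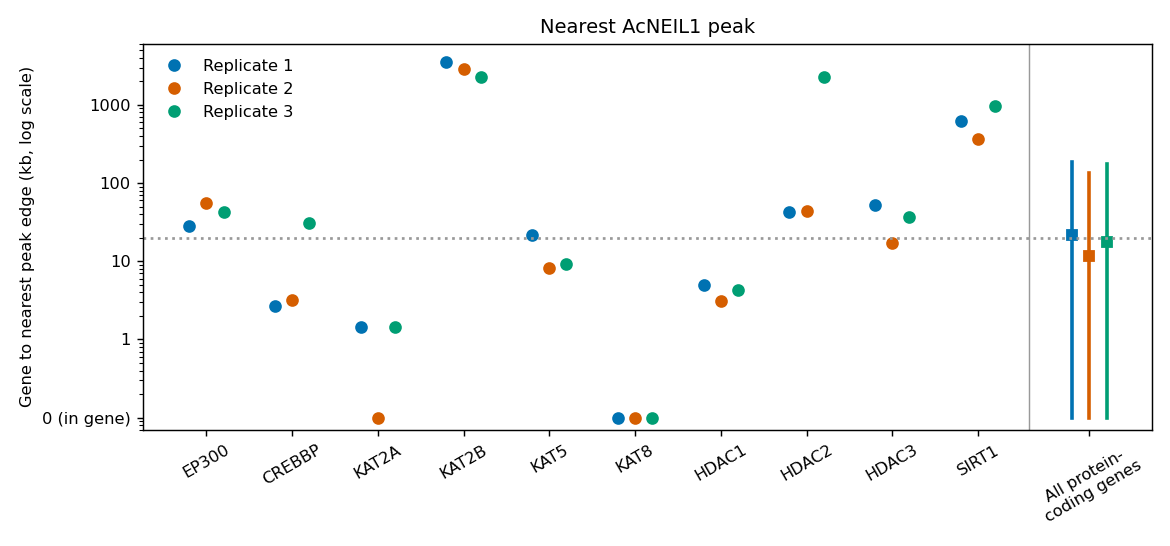
Distance from each gene to the nearest AcNEIL1 peak edge in kb on a log scale, by replicate, with 0 (a peak in the gene) drawn at the bottom; at the right, squares and lines give the median and quartiles of all 19821 protein-coding genes, and the dotted line marks 20 kb. KAT8 has a peak inside in each replicate, EP300 lies between 28.0 and 54.9 kb, and KAT2B lies between 2263 and 3489 kb.

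Over the 10 genes the median distance was 24.96, 12.8 and 33.6 kb in replicates 1, 2 and 3, against 21.9, 11.6 and 17.7 kb for all protein-coding genes. A peak in the gene itself was found for 1, 2 and 1 of the 10, against 26.9%, 32.7% and 28.5% of protein-coding genes. A distance over 20 kb was found for 6, 4 and 6 of the 10, against 50.9%, 44.5% and 48.6%. The 10 genes ranged from a peak inside the gene, at KAT8, to distances that few genes exceeded, at KAT2B.

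The surroundings of the genes differed as much. Within 1 Mb around the middle of the gene, KAT5 had 113.3 ± 15.8 peaks, KAT2A 102.7 ± 15.5, KAT8 67.3 ± 9.02, CREBBP 61.0 ± 9.85 and HDAC3 56.0 ± 11.0 (SD, n = 3 for each). HDAC1 had 43.7 ± 4.04 and EP300 28.7 ± 4.93 (SD, n = 3 for each), against a median of 23.7 for protein-coding genes. HDAC2, SIRT1 and KAT2B had 0.667 ± 0.577, 0.333 ± 0.577 and none (SD, n = 3). The counts in 1 Mb include the peaks of the gene's own window, so the 2 measures are not separate. The 2 orders were not the same. KAT5 had the densest surroundings and 1.00 ± 1.00 peaks in its own window, while HDAC1, with the lower density around it, had 12.3 ± 1.53 (SD, n = 3 for both).

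**Figure D4:**
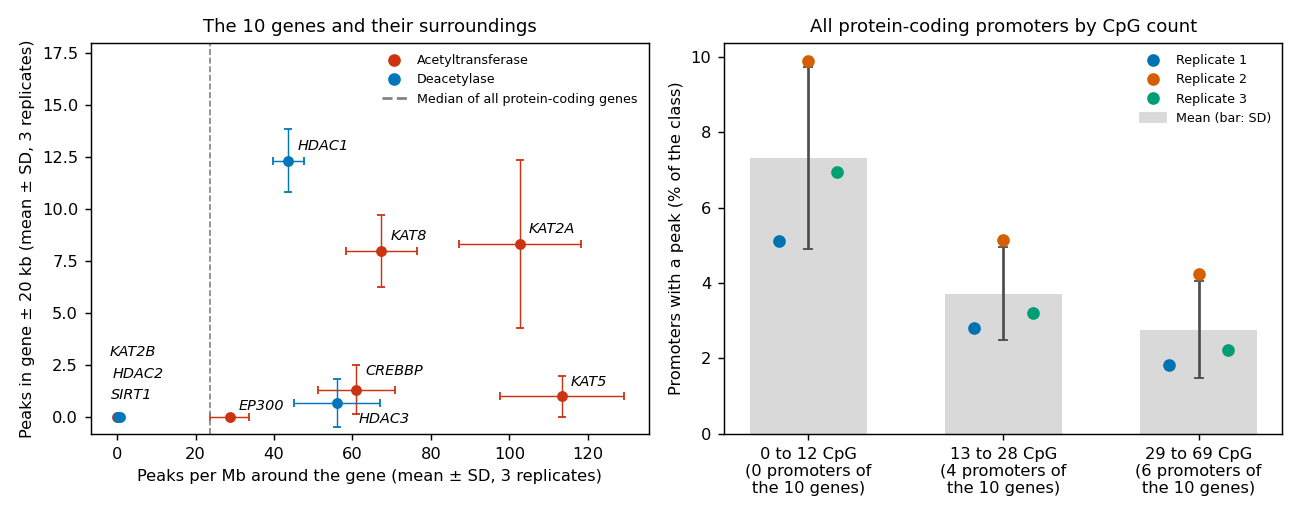
Left, mean number of peaks in the gene and its 20 kb flanks against the mean number in 1 Mb around it. The 1 Mb includes the gene and its flanks, and bars are SD over 3 replicates. Acetyltransferase genes are red, deacetylase genes are blue and the median of all protein-coding genes is dashed. Right, share of all protein-coding promoters with a peak in each replicate, by class of CpG count (points, replicates; bars, mean and SD). KAT5 lies far right and low, HDAC1 lies highest, and the share of promoters with a peak was lowest in the class with most CpG, where 6 of the 10 promoters of these genes fell.

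The peaks in these windows were of ordinary strength or somewhat above it. The median pileup was 23, 24 and 20 tags in replicates 1, 2 and 3, against 20, 21 and 19.1 tags in the whole lists. The median fold was 3.49, 3.63 and 4.01, against 3.42, 3.40 and 3.61. A fold under 5 was found for 25 of 27, 32 of 37 and 25 of 31 peaks. By fold, the median peak of the windows stood at the 53.8th, 63.5th and 72.4th percentile of its list. By pileup it stood at the 69.7th, 68.0th and 58.2nd percentile. It lay above the middle by both measures in each replicate, by little for fold in replicate 1. With HDAC1, KAT2A and KAT8 holding most of the peaks, these medians describe their neighbourhoods rather than 10 genes.

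**Figure D5:**
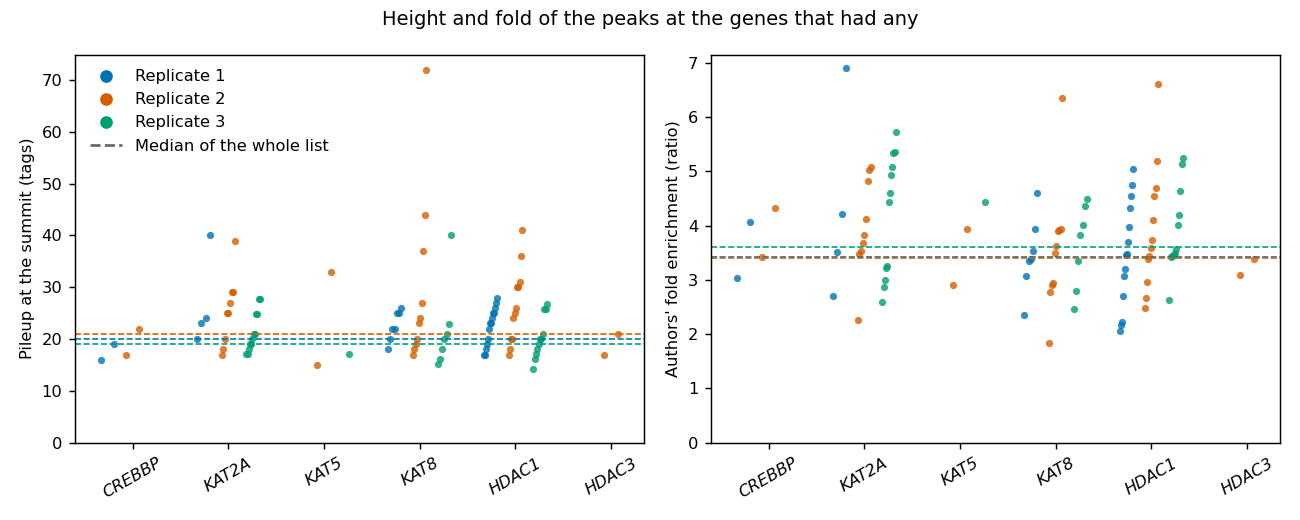
Pileup in tags (left) and the authors' fold enrichment (right) of every peak in the windows of the 6 genes that had any, by replicate, with dashed lines at the median of each whole list. Most points scatter around the dashed lines, and the highest pileup, 72 tags at KAT8 in replicate 2, has a fold of 1.83.

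Merging overlapping peaks of the 3 lists gave 39 regions in the windows. Of these, 11 (28.2%) had a peak in all 3 replicates, against 13.2% of 85534 regions in the whole series, and 23 had a peak in 1 replicate. The shared regions belonged to HDAC1 (5 of 9), KAT2A (3 of 10) and KAT8 (3 of 11). At CREBBP, KAT5 and HDAC3 all 9 regions were seen in 1 replicate. Regions beside 1 gene are not independent of each other, and the difference from the whole series was not tested.

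Of the 79 flank peaks, 68 (86.1%) touched another annotated gene, against 63.6% of the flank peaks of all protein-coding genes, each peak counted once for each gene it flanks. The difference was not tested, and the peaks beside 1 gene are not independent. Another gene was touched by 3 of the 5 gene-end peaks and by none of the 11 body peaks of KAT8. Most of the flank peaks lay in LCK, the long non-coding genes beyond HDAC1, DHX58, ZNF385C and PRSS36.

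Other genes of lysine acetylation, 135 in 8 lists, are given for comparison, again without a test. Of these, 7 (5.19%) had a gene-end peak in at least 2 replicates, 21 (15.6%) a body peak, 64 (47.4%) a flank peak and 71 (52.6%) a window peak, beside the same background shares as above. Among 15 other acetyltransferase genes 1 had a gene-end peak and none a body peak. Among 14 other deacetylase genes 3 had a gene-end peak, 7 a body peak and 11 a flank peak. The 4 deacetylase genes described above had counts of 0, 0 and 1. The shares of all protein-coding genes were 15.2%, 23.8% and 42.4%. With 4 genes, counts of 0, 0 and 1 lie near these shares, and gene length was not taken into account.

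Gene-end peaks were few among the partners of the enzymes, beside 15.2% of all protein-coding genes with one in at least 2 replicates. Each list is small, and no difference was tested. None of 22 SAGA and ATAC subunit genes, 17 NuA4 subunit genes, 11 MSL and NSL subunit genes and 6 NCoR and SMRT subunit genes had one in at least 2 replicates. Of 29 genes of HDAC1 and HDAC2 complexes 1 had one, and of 22 bromodomain genes 2 had one. A window peak in at least 2 replicates was found for 10 of the SAGA and ATAC genes, 6 of the NuA4 genes, 6 of the MSL and NSL genes and 4 of the NCoR and SMRT genes. It was found for 15 of the genes of HDAC1 and HDAC2 complexes and 14 of the bromodomain genes. These window shares ran from 35.3% for NuA4 to 66.7% for NCoR and SMRT, against 51.6% of all protein-coding genes.

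A gene-end peak in all 3 replicates was found for 3 of the 135 genes, against 9.03% of protein-coding genes. BRD2, a bromodomain reader of acetylated histones, had pileups of 32, 30 and 35.3 tags and fold 4.59 ± 0.248 (SD, n = 3). SIRT2, a mainly cytoplasmic deacetylase, had 20, 23 and 21 tags and fold 3.28 ± 0.617, and BRD1, a scaffold of acetyltransferase complexes, had 25, 23 and 21 tags and fold 3.09 ± 0.390 (SD, n = 3 for both). BRD2 stood above the other 2 genes in each replicate.

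By counts of peaks in the 3 zones and 3 replicates, the gene of these lists most like HDAC1 was MRGBP, with 15, 10 and 12 flank peaks and 1 gene-end peak in replicate 3, a summed difference of 5 peaks over 9 counts. HDAC6, with 9, 7 and 7 flank peaks, and WDR5, with 5, 9 and 9, followed at a summed difference of 14 each. The likeness covers 3 libraries only.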

How the data were processed

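AcNEIL1 peak lists of 3 ChIP libraries were used, each from the authors' comparison of a ChIP library with the input of the same number. Peaks were called with MACS 2.1.1.20160309, single-end, with q below 0.05 and at most 2 tags per position, per the file headers; Bowtie2, SAMtools and bedtools are among the tools in the submitters' processing notes. The deposited signal is the pileup of extended tags at the summit, with the larger library scaled to the smaller, per the file headers, so replicate 3 has values that are not whole. The deposited fold is a ratio of pileup to local background with 1 added to each, which also gave the background quoted, and the deposited −log10 values are those of p and q.

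Positions are 1-based in hg38. Genes and promoters came from RefSeq (GRCh38.p14, the same build), without exons; scaffold rows were dropped. A peak was assigned by 1 bp of overlap to a gene end (1000 bp either side), otherwise to the body, otherwise to the 20 kb flank. A gene counted when at least 2 replicates had a peak. Python 3.11.15 with pandas 2.3.3 was used, and the zones were checked on artificial peaks placed at known positions. Members and lists were chosen with earlier results of these data known. Text names all members, up to 2 genes per wider list with end peaks in all replicates by mean rank of fold, and the 3 listed genes most like the member with most peaks. No genome sequence was used here, and depth is that of the libraries: a gene without a peak is one where none passed the caller's limit.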

Additional observations from a re-analysis of the deposited data

How the results depend on the processing

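No paired analysis was possible because the input libraries enter only through the peak lists and no result comes from a test. Of 40 alternative values, 30 kept their count within 1.5 times or their mean within 1 SD. The count of genes with a gene-end peak was 0 under all alternatives run except windows of 5000 bp. Where the count was 0, the share of protein-coding genes ran from 7.55% to 12.9%. With windows of 5000 bp it was 4 genes (CREBBP, KAT2A, KAT8 and HDAC1), against 32.3% of protein-coding genes. The body count was then 0 in place of 1, against 16.3%, since wider end windows take over KAT8's body peaks. With flanks of 50 kb, 8 genes had a flank peak and 8 a window peak, against 56.0% and 61.6%, KAT2B and SIRT1 being the exceptions. The number of peaks in the windows, 31.7 ± 5.03, was 18 ± 3.61 with flanks of 10 kb and 51.3 ± 8.74 with 50 kb. Keeping peaks whose −log10 q reached 5 left 15.7 ± 7.10, and 18 ± 1.73 were left for the 20000 peaks of each list with the highest −log10 q (SD, n = 3 for all). Leaving out each replicate and requiring a peak in both others gave 0 to 0 genes with an end peak and 1 to 1 with a body peak. The shares of protein-coding genes were then 9.9% to 12.5% and 18.6% to 20.2%. A flank peak was found for 3 to 4 genes, against 33.6% to 37.4%, and a window peak for 3 to 4, against 43.2% to 46.3%. The windows then held 29 to 34 peaks. Replicate 2 had the most peaks, the deepest input and the shallowest ChIP library. Its ChIP library had 28814429 tags, against 31921768 in replicate 1 and 35222701 in replicate 3. All gene-end peaks, both peaks at HDAC3 and 2 of 3 at KAT5 came from replicate 2. Whether depth sets these was not tested.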
